A study of Mus musculus with 12 samples.

Results

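The mouse Cyp2 and Cyp3a families hold many of the cytochrome P450 enzymes that oxidize drugs, toxins, and many steroids and fatty acids in liver. Of the 56 genes whose symbols are Cyp2 or Cyp3a followed by a subfamily letter and a number, 40 averaged at least 0.5 RPKM across the 12 liver libraries and were taken as members, out of 22456 genes in the matrix (RPKM is reads scaled by transcript length and by the depth of the library, so levels can be compared between genes). The libraries came from male BALB/cByJ mice aged 2 to 8 months, with 3 mice in each of 4 groups. These were Lpin1+/+ (wild-type littermates, "WT" in the plots) and Lpin1-/- (homozygous for the fatty liver dystrophy allele Lpin1fld in every tissue, "FLD" in the plots), either fasted for 16 hours or refed with chow for 5 hours after the same fast. Refed livers were taken later in the day than fasted ones, so feeding and time of day cannot be told apart, and the whole liver was sampled, so fewer cells of a type and less RNA per cell cannot be told apart.

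Cytochrome P450 enzymes are heme proteins of the endoplasmic reticulum that receive electrons from P450 oxidoreductase and, in part, from cytochrome b5. In hepatocytes, the nuclear receptors CAR (Nr1i3) and PXR (Nr1i2) respond to drugs and bile acids and switch on Cyp2b and Cyp3a genes. HNF4A, C/EBP, and FOXA factors keep the basal levels of many family members high. Several of the genes differ between the sexes in mouse liver, and many sit in tandem clusters of near-identical copies. Lipin 1, the protein missing in Lpin1-/- mice, is a phosphatidic acid phosphatase that also acts with transcriptional coactivators in liver.

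The family's 40 members fell into 11 subfamilies, with 13 Cyp2c, 7 Cyp2d, 6 Cyp3a, 4 Cyp2a, 3 Cyp2j, and 2 Cyp2b genes and 1 gene each of Cyp2e, Cyp2f, Cyp2g, Cyp2r, and Cyp2u. On GRCm38, 12 of the Cyp2c genes lie on chromosome 19, the Cyp2d genes on chromosome 15, the Cyp3a genes on chromosome 5, the Cyp2j genes on chromosome 4, Cyp2u1 on chromosome 3, and the other 10 on chromosome 7. Cyp2c44 had no entry under that symbol. Just inside the limit were Cyp2c55 (mean 0.606 RPKM), Cyp2g1 (0.768 RPKM), and Cyp2c69 (0.987 RPKM), and just outside were Cyp2d34 (0.266 RPKM), Cyp2s1 (0.239 RPKM), and Cyp2b13 (0.164 RPKM). The mean was above 100 RPKM for 16 members, between 10 and 100 RPKM for 11, between 1 and 10 RPKM for 10, and below 1 RPKM for 3. Because the limit is on the mean of all 12 libraries, a gene that is low in some groups passed through the others. This applied to 4 members, as Cyp2g1 had a mean under 0.5 RPKM in both Lpin1-/- groups, Cyp2c55 in both Lpin1+/+ groups, Cyp2b9 in refed Lpin1+/+ liver, and Cyp2d12 in refed Lpin1-/- liver.

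The depth estimated from low RPKM values and exon lengths was 95.1 M to 125.3 M mapped reads per library. Lpin1 was at 22.0, 0.726, and 1.76 RPKM in fasted Lpin1+/+ liver and at 0.0368 to 0.0597 RPKM in fasted Lpin1-/- liver, and at 0.784 to 2.92 RPKM against 0.00573 to 0.0238 RPKM after refeeding, so the groups did not overlap, although the adjusted p was 0.0562 and 0.231. Hepatocyte markers (8 of 8 measured, Alb and Ttr among them) summed to between 40670 and 86370 RPKM, whereas those of pancreas stayed at or below 1.57 RPKM in sum, adipocyte at or below 0.255, and kidney at or below 0.0203. A pair of libraries stood apart, replicate 1 of fasted Lpin1-/- and replicate 2 of refed Lpin1+/+. In these, Kupffer cell and macrophage markers summed to 511.4 and 420.2 RPKM (63.4 to 261.5 in the other 10 libraries, with 4 of 7 markers above all others) and cholangiocyte markers to 451.5 and 103.0 RPKM (19.2 to 57.0 in the others, with 4 of 5 above). Among the P450 genes, Cyp2d12 was at 57.3 and 38.8 RPKM in this pair and at 0.278 to 1.59 RPKM in the other 10, Cyp2a5, Cyp2j6, and Cyp2r1 were also highest there, and Cyp2e1 and Cyp2c38 lowest. The part of these cells in the P450 results was not tested, and counts without the pair are given beside each comparison of RPKM. The lists of exon counts carry no replicate numbers, and the pair was not left out there.

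To show what lies at the start of the genes that the results turn on, upstream sequences were read from RefSeq windows (GRCm38.p6, from the C57BL/6J reference rather than BALB/cByJ), which matched 34 of the 40 members with 36 windows. Shown are the 250 bases before the start, on the gene's strand, of the gene with the greatest genotype difference (Cyp2b10), of a bile acid hydroxylase (Cyp2c70), of the most abundant Cyp3a gene (Cyp3a11), and of a pair of Cyp3a genes that moved alike (Cyp3a25 and Cyp3a59). Capitals mark the TATA box letters TATAAA, the nuclear receptor half-site AGGTCA, and the HNF4 site CAAAGTCCA, each on either strand, none of which occurs in the Cyp2b10 window.
Cyp2b10 (chr7:25897408-25897657, + strand): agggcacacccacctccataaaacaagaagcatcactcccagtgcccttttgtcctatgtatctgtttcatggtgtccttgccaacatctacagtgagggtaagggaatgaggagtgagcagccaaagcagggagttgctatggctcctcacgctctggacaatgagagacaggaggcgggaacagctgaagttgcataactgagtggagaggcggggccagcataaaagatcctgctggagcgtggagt
Cyp2c70 (chr19:40187287-40187536, - strand): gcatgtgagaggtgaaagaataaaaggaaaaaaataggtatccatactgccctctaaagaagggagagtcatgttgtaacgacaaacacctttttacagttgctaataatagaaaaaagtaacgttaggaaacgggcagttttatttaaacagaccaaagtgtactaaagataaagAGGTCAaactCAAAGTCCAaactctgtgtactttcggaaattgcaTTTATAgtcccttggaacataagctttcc
Cyp3a11 (chr5:145879855-145880104, - strand): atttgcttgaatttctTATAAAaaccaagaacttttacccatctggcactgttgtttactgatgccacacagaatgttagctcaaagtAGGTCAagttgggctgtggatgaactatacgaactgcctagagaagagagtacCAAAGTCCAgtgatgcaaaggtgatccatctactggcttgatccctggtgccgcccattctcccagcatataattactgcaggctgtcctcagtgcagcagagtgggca
Cyp3a25 (chr5:146009618-146009867, - strand): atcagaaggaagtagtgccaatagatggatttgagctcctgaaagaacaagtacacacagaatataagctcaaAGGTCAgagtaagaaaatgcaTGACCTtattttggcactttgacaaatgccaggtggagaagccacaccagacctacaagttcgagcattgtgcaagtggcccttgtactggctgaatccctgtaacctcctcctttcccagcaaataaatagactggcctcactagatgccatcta
Cyp3a59 (chr5:146079008-146079257, + strand): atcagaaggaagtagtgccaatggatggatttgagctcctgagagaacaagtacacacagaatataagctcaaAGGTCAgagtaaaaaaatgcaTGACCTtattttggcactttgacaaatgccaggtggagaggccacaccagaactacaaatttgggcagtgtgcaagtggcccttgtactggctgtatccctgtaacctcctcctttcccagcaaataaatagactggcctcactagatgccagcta

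The letters TATAAA were present in 19 of the 36 windows (52.8%, against 12.4% of all 32851 windows of the same length), AGGTCA in 11 (30.6%, against 14.0%), and CAAAGTCCA in 7 (19.4%, against 0.384%). The 7 windows with CAAAGTCCA belonged to Cyp2c40, Cyp2c67, Cyp2c68, Cyp2c69, Cyp2c70, Cyp3a11, and Cyp3a16. The STAT letters TTCNNNGAA and the C/EBP palindrome TTGCGCAA were in none of the 36 windows (7.02% and 0.164% of all windows). Paralogs share whole windows, so these counts are not of independent sequences. The windows of Cyp3a25 and Cyp3a59 had the same base at 238 of 249 aligned positions (95.6%), those of Cyp3a16 and Cyp3a44 at 236 of 246 (95.9%), and those of Cyp2a4 and Cyp2a5 at 245 of 249 (98.4%), in alignments without gaps. These are letters in a window and not sites of binding.

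In fasted liver, 4 members were called higher and 7 lower in Lpin1-/- than in Lpin1+/+ mice. Higher were Cyp2b10, the classical target of CAR, Cyp2a4, a testosterone hydroxylase that is female-biased in mouse liver, Cyp2c70, the hydroxylase that makes muricholic acids, and Cyp2c55. Lower were Cyp2u1, Cyp3a59, Cyp2g1, Cyp2c44, Cyp3a25, Cyp2d26, and Cyp2j5. Both Cyp2c55 and Cyp2g1 passed the limit only through the genotype in which they were high, so the limit was not neutral to their calls. Over all 11507 genes tested with limma on log2(RPKM + 1), 5.63% were called higher and 13.2% lower at an adjusted p under 0.05. The median log2 fold change was -0.11 for the 40 members and -0.14 for all genes tested, and 17 members were above 0. The groups did not overlap for 20 members (6 higher and 14 lower), as for 32.9% of all genes. Without the pair of libraries that stood apart, 12 members were called, 10 of them the same, beside 1641 of all 11507 genes (2168 with all libraries).

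Cyp2b10 was at 99.7, 26.0, and 18.0 RPKM in fasted Lpin1+/+ and at 112.0, 397.2, and 806.0 RPKM in fasted Lpin1-/- liver. The lowest Lpin1-/- library was only just above the highest Lpin1+/+ library, and both groups spread widely (47.9 ± 45.0 and 438.4 ± 348.8 RPKM, SD, n = 3). The means differed 9.15-fold, and the log2 fold change was 3.15 ± 0.76 (SE, adjusted p = 0.0152). Without Lpin1+/+ replicate 3 or Lpin1-/- replicate 3 the adjusted p was 0.0713 and 0.0519. The share of Cyp2b10 in the summed RPKM of the 40 members was 0.0997% to 0.649% in fasted Lpin1+/+ and 1.01% to 4.42% in fasted Lpin1-/- liver. Cyp2a4 was at 1.00, 3.08, and 1.86 RPKM in Lpin1+/+ and at 9.87, 66.3, and 15.4 RPKM in Lpin1-/- liver, without overlap. Its log2 fold change was 3.00 ± 0.66 (SE, adjusted p = 0.0101). Relative to its near-identical neighbor Cyp2a5, a coumarin hydroxylase, Cyp2a4 stood at 1.03% to 1.39% in fasted Lpin1+/+ and at 3.10% to 33.9% in fasted Lpin1-/- liver. Refed, the ratio was 1.05% to 1.57% against 3.13% to 19.7%, although Cyp2a4 was not called between refed genotypes (adjusted p = 0.248).

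Cyp2c70 was at 127.5, 152.1, and 91.1 RPKM in fasted Lpin1+/+ and at 720.2, 490.6, and 439.0 RPKM in fasted Lpin1-/- liver. All Lpin1-/- libraries were well above all Lpin1+/+ libraries, and the means differed 4.45-fold (log2 fold change 2.14 ± 0.31, SE, adjusted p = 0.00142). The rise was of similar size in each of the alternatives tried, with a log2 fold change of 1.93 to 2.31. Cyp2c55, an eicosanoid hydroxylase, was far lower, at 0.444, 0.166, and 0.279 RPKM against 2.17, 1.14, and 1.06 RPKM (log2 fold change 0.90 ± 0.18, SE, adjusted p = 0.00565). Being low in Lpin1+/+ liver, it passed the limit through its Lpin1-/- values.

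**Figure D1:**
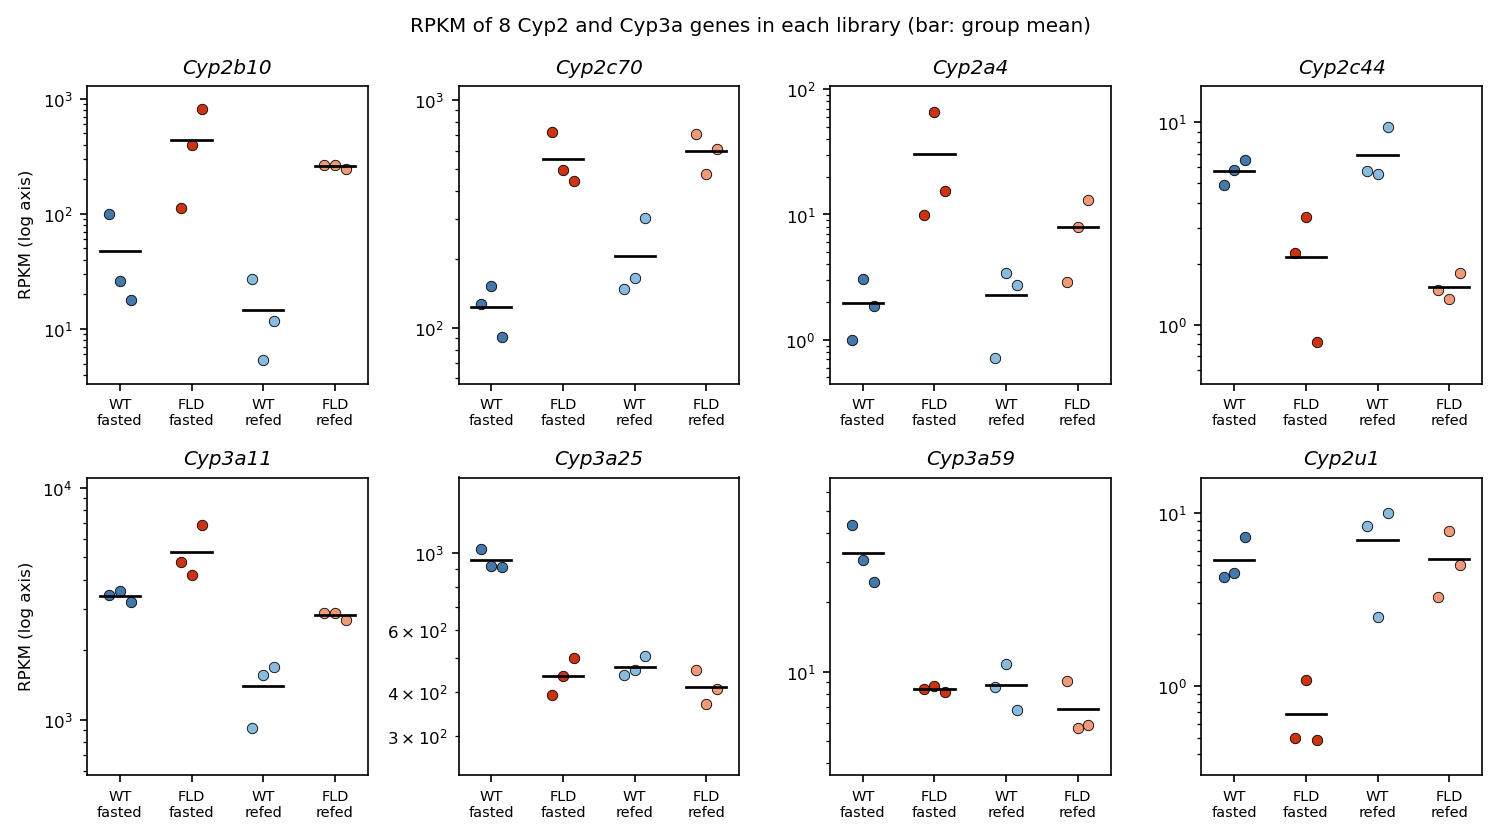
RPKM (log axis) of 8 Cyp2 and Cyp3a genes in each of the 12 libraries, with points for mice and a bar for the mean of the 3 mice in a group (WT, Lpin1+/+ and FLD, Lpin1-/-). Cyp2c70 and Cyp2b10 are higher in both Lpin1-/- groups, Cyp2c44 is lower in both, Cyp3a25 and Cyp3a59 are highest in fasted WT liver, and Cyp2u1 is lowest in fasted FLD liver.

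Among the genes that fell, Cyp2u1, a fatty acid hydroxylase, went from 4.26, 4.52, and 7.26 RPKM in fasted Lpin1+/+ to 0.4997, 1.08, and 0.487 RPKM in fasted Lpin1-/- liver. The difference was 7.77-fold in the means, with no overlap (log2 fold change -1.90 ± 0.41, SE, adjusted p = 0.00942). Cyp3a59 was at 43.5, 30.4, and 24.4 RPKM against 8.44, 8.64, and 8.20 RPKM, and the Lpin1-/- mice were nearly the same as each other. Its log2 fold change was -1.80 ± 0.25 (SE, adjusted p = 0.00092). Cyp3a25, its abundant neighbor on chromosome 5 and close copy, was at 1025, 918.3, and 909.0 RPKM against 391.2, 444.8, and 499.9 RPKM. This was a 2.13-fold difference (log2 fold change -1.10 ± 0.18, SE, adjusted p = 0.00244). Cyp2g1, best known from the olfactory epithelium, was at 0.762, 4.08, and 1.44 RPKM against 0.118, 0.0934, and 0.0563 RPKM, so it was near 0 in Lpin1-/- liver (log2 fold change -1.36 ± 0.34, SE, adjusted p = 0.0183). The call was lost without Lpin1-/- replicate 2, at an adjusted p of 0.0510.

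Cyp2c44, an arachidonic acid epoxygenase, was at 4.91, 5.81, and 6.50 RPKM in fasted Lpin1+/+ and at 2.27, 3.41, and 0.820 RPKM in fasted Lpin1-/- liver (log2 fold change -1.18 ± 0.30, SE, adjusted p = 0.0199). It was not called without Lpin1+/+ replicate 3 or Lpin1-/- replicate 3 (adjusted p = 0.0807 and 0.0534). The 2 remaining calls were smaller and were lost in more of the alternatives. Cyp2d26 was at 435.8, 686.4, and 663.6 RPKM against 252.0, 345.0, and 331.4 RPKM, without overlap (log2 fold change -0.93 ± 0.28, SE, adjusted p = 0.0408), and was called in 6 of 19 alternatives. Cyp2j5, another epoxygenase, had means of 293.4 ± 43.3 and 166.1 ± 20.5 RPKM (SD, n = 3; log2 fold change -0.81 ± 0.22, SE, adjusted p = 0.0256) and was called in 13 of 19.

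After refeeding, 5 members were higher and 2 lower in Lpin1-/- than in Lpin1+/+ liver, with 2.60% and 4.07% of all genes called in these directions. Cyp2b10 and Cyp2c70 were again higher and Cyp2c44 and Cyp2d26 again lower, and 3 Cyp3a genes (Cyp3a13, Cyp3a44, and Cyp3a16) were higher. The median log2 fold change was -0.16 over the 40 members and -0.07 over all genes, and the groups did not overlap for 18 members (9 in each direction), as for 33.9% of all genes. Leaving out the pair of libraries that stood apart brought the count to 11, with 4 higher and 7 lower, and 6 of the 7 members were among them. Of all 11507 genes, 719 were then called (767 with all libraries). Same-numbered refed libraries of both genotypes deviated together, and with the replicate number as a block 4 members were called (Cyp2b10, Cyp2c70, Cyp2c44, and Cyp2d26). The block gave 526 calls among all genes.

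Cyp2b10 was at 27.1, 5.37, and 11.7 RPKM in refed Lpin1+/+ and at 265.8, 267.8, and 243.5 RPKM in refed Lpin1-/- liver. Here the Lpin1-/- mice were close together (259.0 ± 13.5 RPKM, SD, n = 3) and all far above the Lpin1+/+ mice, a 17.6-fold difference of the means. The log2 fold change, 4.30 ± 0.76 (SE, adjusted p = 0.00926), was the largest of the 40 members in this comparison. Cyp2c70 was at 148.3, 165.6, and 303.3 RPKM against 709.6, 474.1, and 609.0 RPKM (log2 fold change 1.59 ± 0.31, SE, adjusted p = 0.0147). Its groups did not overlap, but the adjusted p rose to 0.0573 without Lpin1+/+ replicate 1 and to 0.0623 and 0.0583 without Lpin1-/- replicates 1 and 3. Cyp2c44 was at 5.73, 5.53, and 9.46 RPKM against 1.49, 1.34, and 1.79 RPKM, a 4.48-fold drop (log2 fold change -1.61 ± 0.30, SE, adjusted p = 0.0118) that was called in all 18 alternatives.

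Of the Cyp3a genes, Cyp3a13 was at 19.5, 13.4, and 14.3 RPKM in refed Lpin1+/+ and at 41.4, 39.9, and 38.5 RPKM in refed Lpin1-/- liver (log2 fold change 1.31 ± 0.31, SE, adjusted p = 0.0329). Cyp3a44 was at 7.43, 12.4, and 13.4 RPKM against 30.3, 25.5, and 24.5 RPKM (log2 fold change 1.23 ± 0.29, SE, adjusted p = 0.0289). Both sets of Lpin1-/- values lay within a narrow band above the highest Lpin1+/+ library. Cyp3a16 was at 1.65, 2.56, and 2.54 RPKM against 4.74, 4.46, and 4.61 RPKM (log2 fold change 0.80 ± 0.21, SE, adjusted p = 0.044). Cyp3a11, the counterpart of human CYP3A4 and a target of PXR, was at 922.4, 1559, and 1689 RPKM against 2889, 2879, and 2693 RPKM without overlap, but its adjusted p was 0.0576 (log2 fold change 1.07 ± 0.30, SE). The calls of Cyp3a13, Cyp3a44, and Cyp3a16 were lost in 9, 5, and 11 of 19 alternatives. With the replicate block none of these 3 passed (adjusted p = 0.0622, 0.0513, and 0.0695). Cyp2d26 was at 528.6, 471.6, and 912.3 RPKM in refed Lpin1+/+ and at 302.9, 231.1, and 279.4 RPKM in refed Lpin1-/- liver (log2 fold change -1.18 ± 0.28, SE, adjusted p = 0.0326), and was lost in 9 of 19 alternatives.

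**Figure D2:**
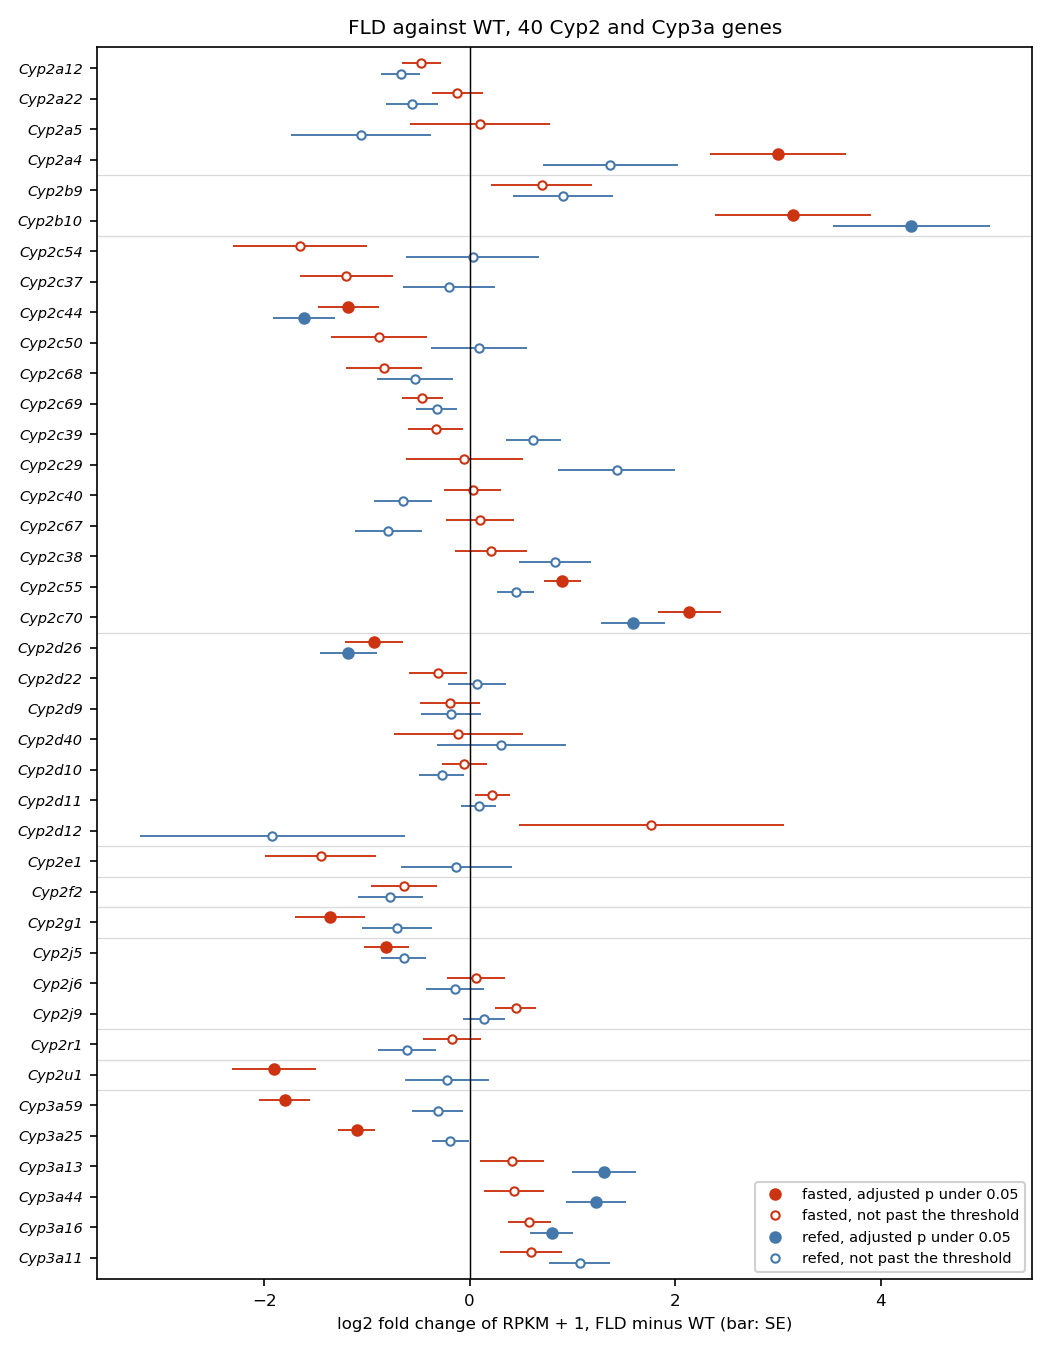
Log2 fold change of RPKM + 1 between Lpin1-/- (FLD) and Lpin1+/+ (WT) liver for the 40 genes, grouped by subfamily, with bars of 1 SE and filled points for an adjusted p under 0.05. Cyp2b10 stands farthest to the right in both states, and Cyp3a25 and Cyp3a59 lie left of 0 in the fasted state, apart from the other 4 Cyp3a genes.

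In Lpin1+/+ liver, 4 of the 6 Cyp3a genes fell after refeeding. Cyp3a59, Cyp3a11, Cyp3a16, and Cyp3a25 were called lower in refed than in fasted mice, no member was called higher, and no gene of another subfamily was called. Among all genes 1.52% were called higher and 0.200% lower in this comparison. All 6 Cyp3a genes had groups that did not overlap, as did 9 of the 40 members, all lower, and 18.1% of all genes. The median log2 fold change was -1.15 for the 6 Cyp3a genes, -0.22 for the 40 members, and 0.19 for all genes tested. Rescaling the libraries by their median ratio moved the all-gene median to -0.00 and left 1 call, Cyp3a59, beside 49 among all genes (198 before). A fit of only the 6 libraries compared gave 0 calls among the members with limma (8 at an unadjusted p under 0.05) and 0 among all genes. Leaving out the pair of libraries that stood apart left 2 members, Cyp3a59 and Cyp3a25, beside 179 of all genes.

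Cyp3a11 was at 3454, 3579, and 3199 RPKM in fasted and at 922.4, 1559, and 1689 RPKM in refed Lpin1+/+ liver. The groups were well separated, with means 2.45-fold apart (log2 fold change -1.34 ± 0.30, SE, adjusted p = 0.0494). The call was lost in 17 of 19 alternatives, with an adjusted p of 0.0265 to 0.244. Cyp3a59 went from the fasted values above to 8.56, 10.8, and 6.80 RPKM (log2 fold change -1.78 ± 0.25, SE, adjusted p = 0.0111). It passed in all alternatives but the fit of 6 libraries (adjusted p = 0.0717). Cyp3a25 went to 445.6, 461.7, and 505.4 RPKM, lower than every fasted library by nearly the same amount (log2 fold change -1.01 ± 0.18, SE, adjusted p = 0.021). Cyp3a16 went from 5.35, 6.11, and 5.84 to 1.65, 2.56, and 2.54 RPKM (log2 fold change -1.07 ± 0.21, SE, adjusted p = 0.0293). The calls of Cyp3a25 and Cyp3a16 were lost in 9 and 11 of 19 alternatives. Cyp3a44 showed a similar fold (log2 fold change -1.22 ± 0.29, SE) at an adjusted p of 0.062.

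In Lpin1-/- liver, refeeding raised 1 member, Cyp2u1, and lowered 3, Cyp3a16, Cyp2j9, and Cyp2c55, whereas 17.8% of all genes were called higher and 2.92% lower. The median log2 fold change was -0.19 over the 40 members and 0.25 over all genes, and the groups did not overlap for 8 members (2 higher and 6 lower), as for 46.8% of all genes. Cyp2u1 rose from the low fasted values above to 3.28, 7.91, and 5.00 RPKM, a 7.84-fold difference of the means (log2 fold change 1.87 ± 0.41, SE, adjusted p = 0.00952), and passed in all 18 alternatives. This brought it to the range of both Lpin1+/+ groups (2.51 to 10.03 RPKM). Cyp3a16 went from 9.49, 6.75, and 11.8 to 4.74, 4.46, and 4.61 RPKM (log2 fold change -0.85 ± 0.21, SE, adjusted p = 0.0151), although not without Lpin1-/- refed replicate 2 (adjusted p = 0.0595). Cyp2c55 went to 0.508, 0.594, and 0.520 RPKM (log2 fold change -0.65 ± 0.18, SE, adjusted p = 0.0245). Cyp2j9, an epoxygenase of low level in liver, went from 3.19, 4.95, and 4.62 to 2.39, 1.72, and 2.79 RPKM (log2 fold change -0.67 ± 0.20, SE, adjusted p = 0.0396). Cyp2c55 and Cyp2j9 were lost in 5 and 11 of 18 alternatives. Without the pair of libraries that stood apart 2 members were called, Cyp2u1 and Cyp2j9, beside 1389 of all 11507 genes (2382 with all libraries). Cyp3a11, at 4782, 4186, and 6906 RPKM fasted and at 2889, 2879, and 2693 RPKM refed, also had groups that did not overlap (log2 fold change -0.87 ± 0.30, SE, adjusted p = 0.0588).

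**Figure D3:**
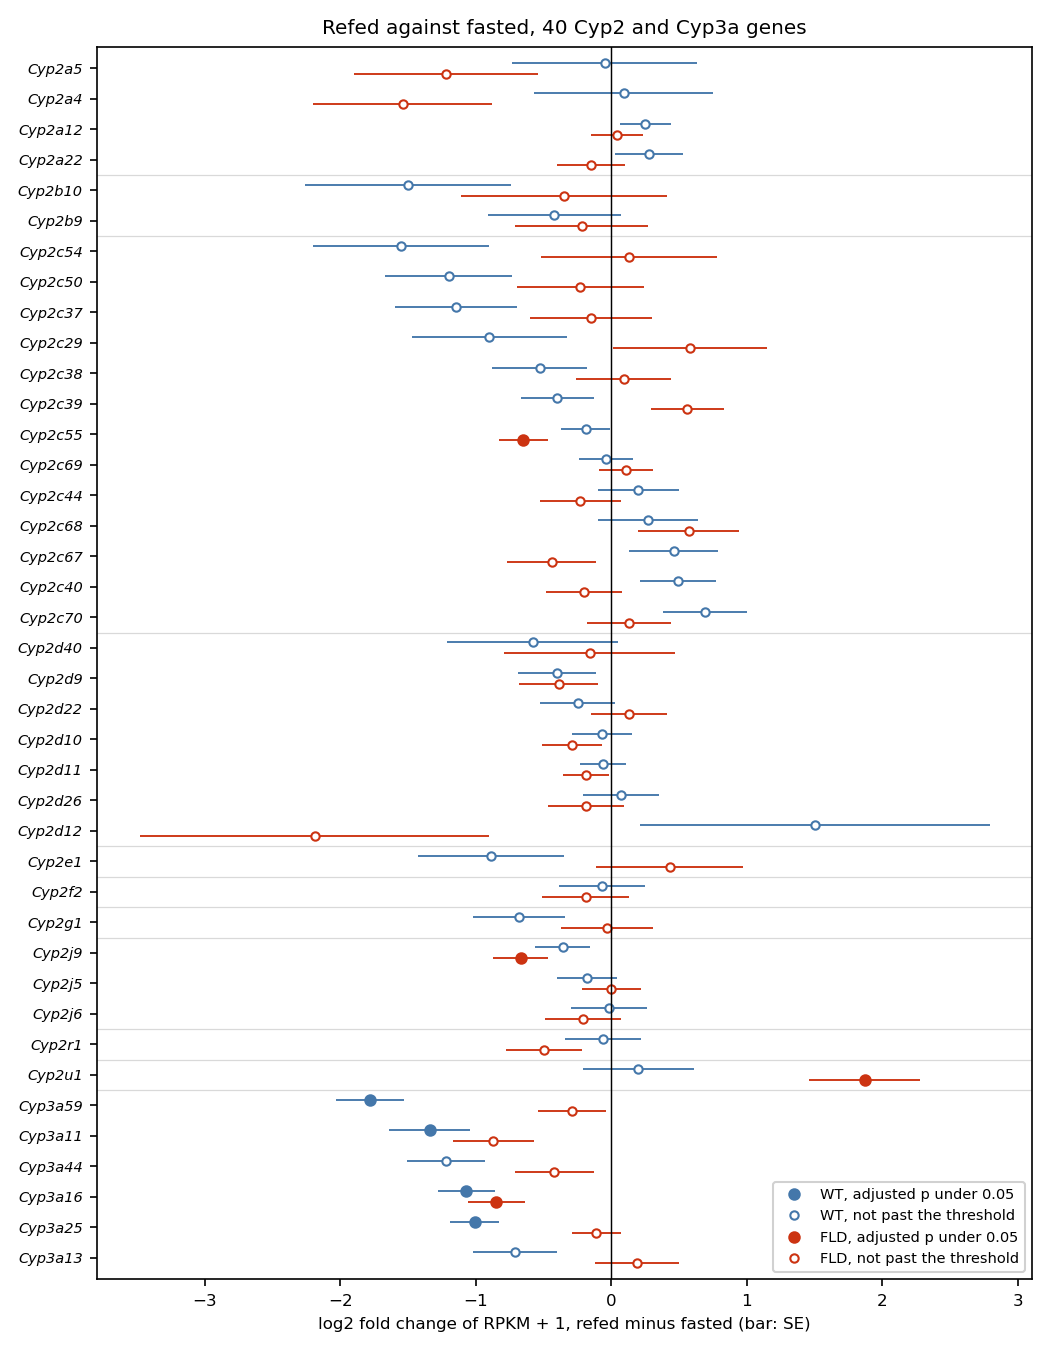
Log2 fold change of RPKM + 1 between refed and fasted liver for the 40 genes in each genotype, grouped by subfamily, with bars of 1 SE and filled points for an adjusted p under 0.05. The 6 Cyp3a genes lie left of 0 in Lpin1+/+ (WT) liver, and Cyp2u1 stands to the right in Lpin1-/- (FLD) liver.

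The difference between the genotypes in the response to refeeding was tested as an interaction, and limma called 0 of the 40 members (4 at an unadjusted p under 0.05), against 0.791% of all genes higher and 0.487% lower. Cyp3a59 came closest, with an interaction of 1.49 ± 0.35 on the log2 scale (SE, adjusted p = 0.0619), followed by Cyp3a25 with 0.91 ± 0.26 (adjusted p = 0.108). All 6 Cyp3a genes were above 0, with a median of 0.85 on this scale. Cyp3a59 was called when libraries were rescaled or when the limit was a mean of 5 RPKM. Without the pair of libraries that stood apart, 0 members were called, beside 52 of all 11507 genes (147 with all libraries). Both genes were highest in fasted Lpin1+/+ liver, the group that the fasted genotype comparison and the Lpin1+/+ feeding comparison share, so their values in these comparisons are not independent. In the other 3 groups Cyp3a25 ranged from 370.3 to 505.4 RPKM and Cyp3a59 from 5.70 to 10.8 RPKM. For Cyp2u1, the interaction was 1.67 ± 0.58 (SE, adjusted p = 0.168).

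Of the 10 most abundant members, 6 were not called in any comparison. Cyp2e1, which oxidizes ethanol and ketones, was the highest, at 6054, 7721, and 7925 RPKM in fasted Lpin1+/+ and at 1310, 2696, and 5144 RPKM in fasted Lpin1-/- liver. The groups did not overlap, yet the Lpin1-/- mice spread widely, and the adjusted p was 0.0818 (log2 fold change -1.45 ± 0.54, SE). After refeeding it was at 4356, 1871, and 7113 RPKM against 3203, 3363, and 4085 RPKM, with overlap (log2 fold change -0.13 ± 0.54, SE, adjusted p = 0.909). Cyp2e1 was called in fasted liver when Lpin1-/- replicate 3 or Lpin1+/+ refed replicate 2 was left out. Cyp2d9, a male-biased testosterone hydroxylase, was at 1107, 1277, and 1481 RPKM in fasted Lpin1+/+, at 1032, 1317, and 1028 in fasted Lpin1-/-, at 782.3, 861.0, and 1360 in refed Lpin1+/+, and at 713.1, 731.0, and 1200 in refed Lpin1-/- liver. All groups overlapped, and its log2 fold change between genotypes was -0.19 ± 0.29 fasted and -0.18 ± 0.29 refed (SE, adjusted p = 0.68 and 0.751). Cyp2c29 ranged from 324.8 to 759.8 RPKM in fasted liver of both genotypes. In refed liver it was at 320.8, 101.7, and 738.5 RPKM against 908.6, 749.2, and 702.2 RPKM (log2 fold change 1.43 ± 0.57, SE, adjusted p = 0.162), and the lowest value belonged to one of the libraries that stood apart.

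Cyp2d10 varied least among the 10 most abundant members, from 333.1 to 576.7 RPKM over the 12 libraries, and its groups overlapped in all comparisons. Cyp2f2, known for activating naphthalene, was at 674.3, 458.2, and 580.9 RPKM in fasted Lpin1+/+ and at 239.3, 526.0, and 373.0 RPKM in fasted Lpin1-/- liver. In refed mice it was at 549.1, 367.6, and 775.7 RPKM against 305.9, 324.7, and 317.9 RPKM, without overlap (log2 fold change -0.77 ± 0.32, SE, adjusted p = 0.185). Cyp2a12 was lower in both states without overlap, at 374.6, 421.0, and 463.1 against 290.3, 362.6, and 260.3 RPKM fasted and at 458.9, 460.4, and 577.9 against 288.0, 301.1, and 344.7 RPKM refed. Its adjusted p was 0.117 and 0.0635.

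**Figure D4:**
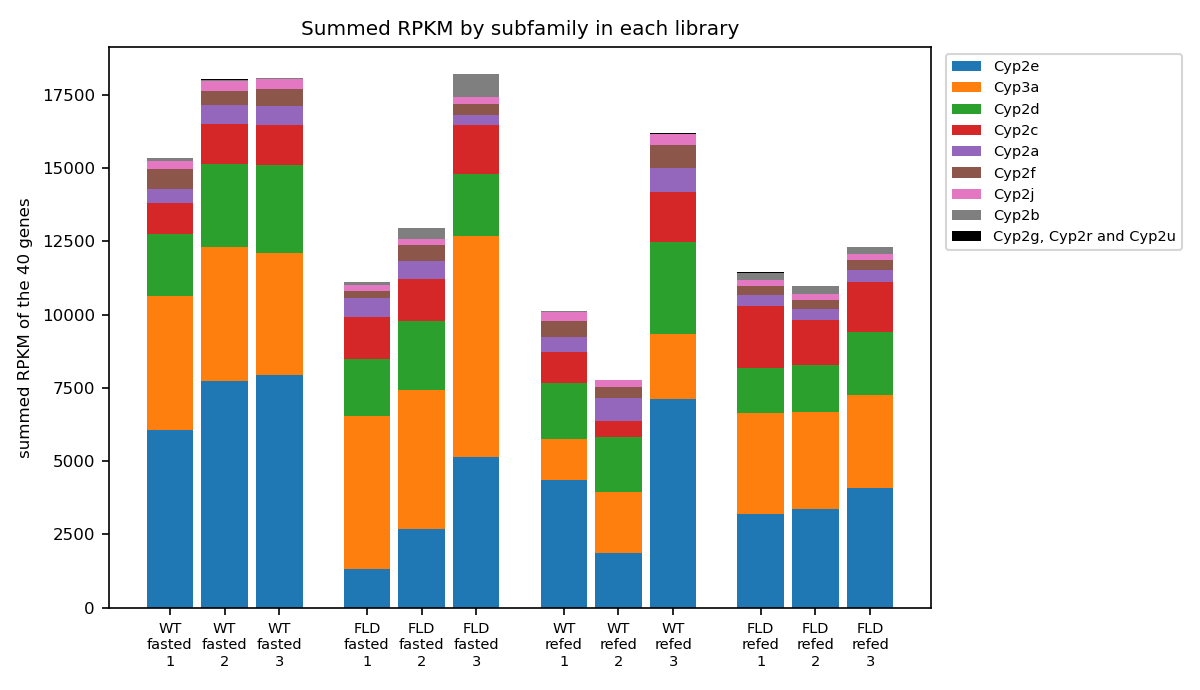
Summed RPKM of the 40 genes in each of the 12 libraries, stacked by subfamily. Cyp2e1 and the Cyp3a genes make up most of each bar, the Cyp3a share is highest in the 3 fasted Lpin1-/- (FLD) mice, and the bars range from 7779 to 18220 RPKM.

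Summed over members, the family reached 15350 to 18080 RPKM in fasted Lpin1+/+, 11120 to 18220 in fasted Lpin1-/-, 7779 to 16180 in refed Lpin1+/+, and 10980 to 12320 in refed Lpin1-/- liver. Within these sums, Cyp2e1 made up 39.4% to 43.8% in fasted Lpin1+/+ and 11.8% to 28.2% in fasted Lpin1-/- liver. The Cyp3a genes made up 23.1% to 29.9% and 36.4% to 47.1% there, and 13.8% to 26.5% and 25.8% to 30.3% in refed Lpin1+/+ and Lpin1-/- liver. The Cyp2c share was 6.86% to 7.54% in fasted Lpin1+/+ and 9.05% to 12.8% in fasted Lpin1-/- liver, and 6.85% to 10.6% against 13.7% to 18.6% after refeeding. Being shares of one sum, they are not independent of each other. Within the Cyp2c genes the members went different ways between the fasted genotypes, from a log2 fold change of -1.65 for Cyp2c54 (adjusted p = 0.103) to 2.14 for Cyp2c70, and the median of the 13 was -0.33.

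Of the 27 receptors and transcription factors on a list of P450 regulators, 1 was called higher and 6 lower in fasted Lpin1-/- liver, where 5.63% and 13.2% of all genes were called in these directions. After refeeding of Lpin1-/- mice 9 of the 27 were called higher, against 17.8% of all genes. None was called after refeeding of Lpin1+/+ mice, where 1.52% of all genes were called higher and 0.200% lower. CAR (Nr1i3) was at 89.5, 151.8, and 111.0 RPKM in fasted Lpin1+/+ and at 53.6, 35.1, and 48.6 RPKM in fasted Lpin1-/- liver, so in fasted liver it was lower where Cyp2b10 was higher (log2 fold change -1.33 ± 0.35, SE, adjusted p = 0.0231). In refed liver, where Cyp2b10 was also higher, CAR was at 65.2, 66.0, and 124.3 against 56.9, 100.1, and 138.5 RPKM (log2 fold change 0.18 ± 0.35, SE, adjusted p = 0.798). Foxa3 went from 41.9, 38.9, and 47.3 to 4.85, 7.12, and 13.3 RPKM (log2 fold change -2.31 ± 0.27, SE, adjusted p = 0.000464) and the bile acid receptor FXR (Nr1h4) from 54.3, 44.4, and 57.9 to 20.8, 16.5, and 17.9 RPKM (log2 fold change -1.45 ± 0.19, SE, adjusted p = 0.000836). Cebpb was higher (log2 fold change 1.71 ± 0.33, SE, adjusted p = 0.00529). After refeeding Foxa3 and Nr1h4 were raised in Lpin1-/- liver by 3.16 ± 0.27 and 1.91 ± 0.19 on the log2 scale (SE, adjusted p = 0.000209 and 0.00035), and their interactions were called (2.72 ± 0.38 and 2.04 ± 0.27, SE, adjusted p = 0.00915 and 0.00794). In refed Lpin1-/- liver 2 of the 27 were called lower than in refed Lpin1+/+ liver, beside 4.07% of all genes. These were the circadian factor Dbp (log2 fold change -2.96 ± 0.70, SE, adjusted p = 0.0318) and SHP (Nr0b2, log2 fold change -1.16 ± 0.30, SE, adjusted p = 0.0453). PXR (Nr1i2) was between 20.6 and 39.4 RPKM in all libraries and Hnf4a between 46.9 and 274.3 RPKM, and neither was called in a comparison.

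P450 oxidoreductase (Por) was at 301.8, 93.0, and 115.7 RPKM in fasted Lpin1+/+ and at 228.4, 417.8, and 512.5 RPKM in fasted Lpin1-/- liver, with overlap and no call. Of the 6 electron donors and membrane partners, Cyb5b was called lower in fasted Lpin1-/- liver (log2 fold change -1.20 ± 0.24, SE, adjusted p = 0.00693), beside 13.2% of all genes. Of the 12 genes of heme synthesis and breakdown 1 was called higher and 3 lower in that comparison, beside 5.63% and 13.2% of all genes. Alas1, the rate-limiting step of heme synthesis, was at 140.8, 45.5, and 24.0 against 250.9, 191.3, and 150.3 RPKM (log2 fold change 1.82 ± 0.53, SE, adjusted p = 0.0345), while Cpox (-1.78 ± 0.35, adjusted p = 0.00609), Alad (-1.44 ± 0.40, adjusted p = 0.0297), and Fech (-0.91 ± 0.23, adjusted p = 0.0186) of later steps were lower on the log2 scale. None of the 12 was called in the other 4 comparisons, in which 0.200% to 17.8% of all genes were called in a given direction.

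Among 12 tested CAR and PXR targets outside the family, 1 was higher and 1 lower in fasted Lpin1-/- liver. Over all genes, 5.63% and 13.2% were called in these directions. In refed Lpin1-/- liver 2 of the 12 were higher, beside 2.60% of all genes. Gadd45b was at 6.48, 4.77, and 6.00 against 102.2, 171.1, and 221.9 RPKM fasted (log2 fold change 4.56 ± 0.37, SE, adjusted p = 0.000109) and was 2.29 ± 0.37 higher on the log2 scale refed (adjusted p = 0.00652). The transporter Slco1a4 was at 5.84, 6.23, and 5.80 against 81.2, 40.9, and 25.2 RPKM refed (log2 fold change 2.69 ± 0.67, SE, adjusted p = 0.0377). Fasted, it was at 58.3, 9.003, and 7.07 against 49.9, 25.0, and 68.9 RPKM, with overlap, and the highest Lpin1+/+ value came from the same library as for Cyp2b10, Por, and Lpin1. Aldh1a1 was lower fasted (log2 fold change -1.20 ± 0.33, SE, adjusted p = 0.0282).

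Known to be higher in female than in male mouse liver are 6 members (Cyp2a4, Cyp2b9, Cyp2c40, Cyp2c69, Cyp3a16, and Cyp3a44). Of these, 1 was called higher in fasted Lpin1-/- liver (Cyp2a4), beside 5.63% of all genes. In refed Lpin1-/- liver 2 were called higher (Cyp3a16 and Cyp3a44), beside 2.60% of all genes, and both calls were lost with the replicate block. Cyp2c40 and Cyp2c69 had refed log2 fold changes of -0.65 and -0.32 (adjusted p = 0.2 and 0.392), and Cyp2b9 was not called. Of 9 male-biased genes none was called between genotypes (median log2 fold change -0.19 fasted and -0.18 refed). Over all genes, 5.63% were called higher and 13.2% lower fasted, and 2.60% and 4.07% refed. Among genes of the pericentral zone, where many P450 enzymes are concentrated, 3 of 10 were called lower in fasted Lpin1-/- liver (Gulo, Axin2, and Lgr5), beside 13.2% of all genes. In refed liver 1 of 10 was called lower (Gulo, log2 fold change -1.13 ± 0.20, SE, adjusted p = 0.0101), beside 4.07% of all genes. Among 9 periportal genes, 1 was higher fasted (Sds, log2 fold change 2.51 ± 0.31, SE, adjusted p = 0.000583) and 4 refed, Arg1 and Ass1 among them, beside 5.63% and 2.60% of all genes. Of the 26 tested genes of other P450 families, 1 was higher (Cyp26a1, log2 fold change 2.37 ± 0.38, SE, adjusted p = 0.002) and 2 lower in fasted Lpin1-/- liver, including the bile acid enzyme Cyp7a1 (-3.03 ± 0.74, adjusted p = 0.0163). In this comparison 5.63% of all genes were called higher and 13.2% lower.

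Because many members are copies of each other, the annotated transcripts were searched for windows of 69 bases, the read length, that also occur in other genes. No such window was found for Cyp2c70, Cyp2f2, Cyp2j5, Cyp2j6, Cyp2j9, Cyp2r1, Cyp3a13, and Cyp2c55. The share was 3.90% for Cyp2b10, 2.18% for Cyp3a11, 14.5% for Cyp3a25, 15.8% for Cyp3a59, 25.3% for Cyp2a4, and 48.9% for Cyp2c40. Cyp3a25 shared most with Cyp3a59, Cyp2a4 with Cyp2a5, and Cyp2d10 with Cyp2d11, so the values of such pairs are less certain than those of single genes. Cyp3a16 stood at 0.151% to 0.198% of Cyp3a11 in every library and Cyp3a44 at 0.542% to 1.05%, although Cyp3a16 ranged from 1.65 to 11.8 RPKM and Cyp3a44 from 7.43 to 55.5 RPKM over the libraries. Whether stray reads of the abundant Cyp3a11 carry part of their values, or reads of Cyp2a5 part of those of Cyp2a4, was not tested.

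Exon use was read from the deposited counts of reads that include or skip an exon. In fasted liver, 806 events in 31 members had at least 10 counts in each library, and 78 (9.68%) in 9 members differed between genotypes at an adjusted p under 0.05 over all events, against 11.3% of all 69644 events. In refed liver 14 of 694 (2.02%) in 3 members did, against 0.970% of all 65231. Events that share an exon or a junction count separately, and the called ones involved 23 different skipping junctions in fasted and 5 in refed liver. Of the 78 events in fasted liver, 41 were in Cyp2d9, 14 in Cyp2e1, 8 in Cyp2d10, and 5 each in Cyp3a25 and Cyp3a59, and of the 14 in refed liver 11 were in Cyp2d9. The exon was less included in Lpin1-/- liver in 67 of the 78 and in 11 of the 14. Leaving out 1 library at a time gave 48 to 124 calls in fasted and 0 to 2 in refed liver. Over all events, 5.48% to 13.7% were then called in fasted and 0% to 0.0230% in refed liver.

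The exons described next were chosen after their values were seen. They are annotated coding exons of a called event in which skipping joins the 2 neighboring annotated exons. Exon 6 of Cyp2d9 and exons 4 and 5 of Cyp2d10 are coding exons too, but were in called events only with other flanks and are not described. In Cyp2d9, skipping of exon 3 of 9 (chr15:82454038-82454190, 153 bases) was estimated at 0.0879%, 0.182%, and 0.241% of transcripts in fasted Lpin1+/+ and at 17.4%, 9.69%, and 2.0% in fasted Lpin1-/- liver (adjusted p = 0.00284). In refed mice it was at 0.108%, 0.390%, and 0.123% against 4.04%, 3.46%, and 4.86% (adjusted p = 0.0212). All Lpin1-/- libraries were above all Lpin1+/+ libraries in both states. For exon 5 (chr15:82455074-82455250, 177 bases) no skipping read was counted in any Lpin1+/+ library, which allows a share of up to 0.0178% fasted and 0.0311% refed (3 counts per library, counting error only). In Lpin1-/- liver 384, 507, and 75 skipping counts were found fasted and 114, 244, and 401 refed, which are 3.12%, 2.82%, 0.504%, 0.920%, 2.04%, and 2.23% of transcripts (adjusted p = 0.000571 and 0.0051). Both exons have lengths that are multiples of 3, so skipping leaves the reading frame unchanged.

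Exon 7 of Cyp2d9 (188 bases) was skipped in 0.0131% to 0.0874% of transcripts in fasted Lpin1+/+ and in 0.477% to 3.06% in fasted Lpin1-/- liver (adjusted p = 0.0053), and exon 3 of Cyp2d10 in 0% to 0.0324% and 0.243% to 2.83% (adjusted p = 0.00586). Exon 3 of Cyp2b10 (chr7:25911554-25911703, 150 bases) had 0, 1, and 0 skipping counts in fasted Lpin1+/+ and 23, 151, and 208 in fasted Lpin1-/- liver, which is 2.39%, 3.12%, and 2.05% of transcripts in the latter (adjusted p = 0.0224). Its inclusion counts were 4386, 839, and 676 in Lpin1+/+ and 3008, 15030, and 31812 in Lpin1-/- liver, with overlap. In refed Lpin1+/+ liver 0 skipping counts were found beside 921, 232, and 559 inclusion counts. The library with 232 counts alone allows a share of up to 3.98% (3 counts, counting error only), and the others allow less. In refed Lpin1-/- liver the share was estimated at 0.977%, 1.49%, and 1.58%, and the difference was not called (adjusted p = 0.228). The refed differences of Cyp2d9 exon 7 and Cyp2d10 exon 3 did not pass either (adjusted p = 0.0597 and 0.0806). Exon 8 of Cyp2d9 and exon 4 of Cyp2e1 were also called in fasted liver (adjusted p = 0.0151 and 0.00312). Exon 8 was skipped in 0% to 0.0125% of fasted Lpin1+/+ and 0.0495% to 0.377% of fasted Lpin1-/- transcripts. Refed, these ranges overlapped (0.0039% to 0.0512% and 0.0294% to 0.117%, adjusted p = 0.421). Exon 4 of Cyp2e1 had no skipping count in Lpin1+/+ liver. It had 10, 12, and 4 in fasted and 0, 0, and 2 in refed Lpin1-/- liver. The fully spliced form remained by far the larger one for all of these exons, and the RPKM of Cyp2d9 was not called between genotypes.

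Exons 3 and 5 of Cyp2d9 are shown with the same exons of Cyp2d10, because reads of one gene can be placed on the other where they are alike. Letters are from the C57BL/6J reference (GRCm38, GENCODE M21 transcripts, 5′ to 3′ on the gene's strand), and capitals mark the bases at which the 2 genes differ.
Cyp2d9 exon 3 (chr15:82454038-82454190, + strand): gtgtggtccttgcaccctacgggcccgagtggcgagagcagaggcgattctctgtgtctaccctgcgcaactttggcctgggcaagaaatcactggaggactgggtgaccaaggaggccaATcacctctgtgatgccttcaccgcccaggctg
Cyp2d10 exon 3 (chr15:82405486-82405638, - strand): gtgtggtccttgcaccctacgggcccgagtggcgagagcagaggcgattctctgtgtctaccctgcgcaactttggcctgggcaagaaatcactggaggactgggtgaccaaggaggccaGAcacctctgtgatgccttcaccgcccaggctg
Cyp2d9 exon 5 (chr15:82455074-82455250, + strand): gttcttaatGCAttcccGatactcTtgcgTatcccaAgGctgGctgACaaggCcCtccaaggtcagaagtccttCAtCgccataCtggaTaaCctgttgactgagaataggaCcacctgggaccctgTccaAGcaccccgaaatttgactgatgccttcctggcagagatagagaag
Cyp2d10 exon 5 (chr15:82404428-82404604, - strand): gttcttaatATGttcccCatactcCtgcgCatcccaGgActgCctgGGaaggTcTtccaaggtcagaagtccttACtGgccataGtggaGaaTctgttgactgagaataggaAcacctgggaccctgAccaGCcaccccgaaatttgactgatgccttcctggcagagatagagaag

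Exon 3 differed at 2 of 153 positions (98.7% identity) and exon 5 at 23 of 177 (87.0%). Inclusion counts of exon 3 may therefore hold reads of either gene, and the part of such reads in the skipping estimates was not tested.

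**Figure D5:**
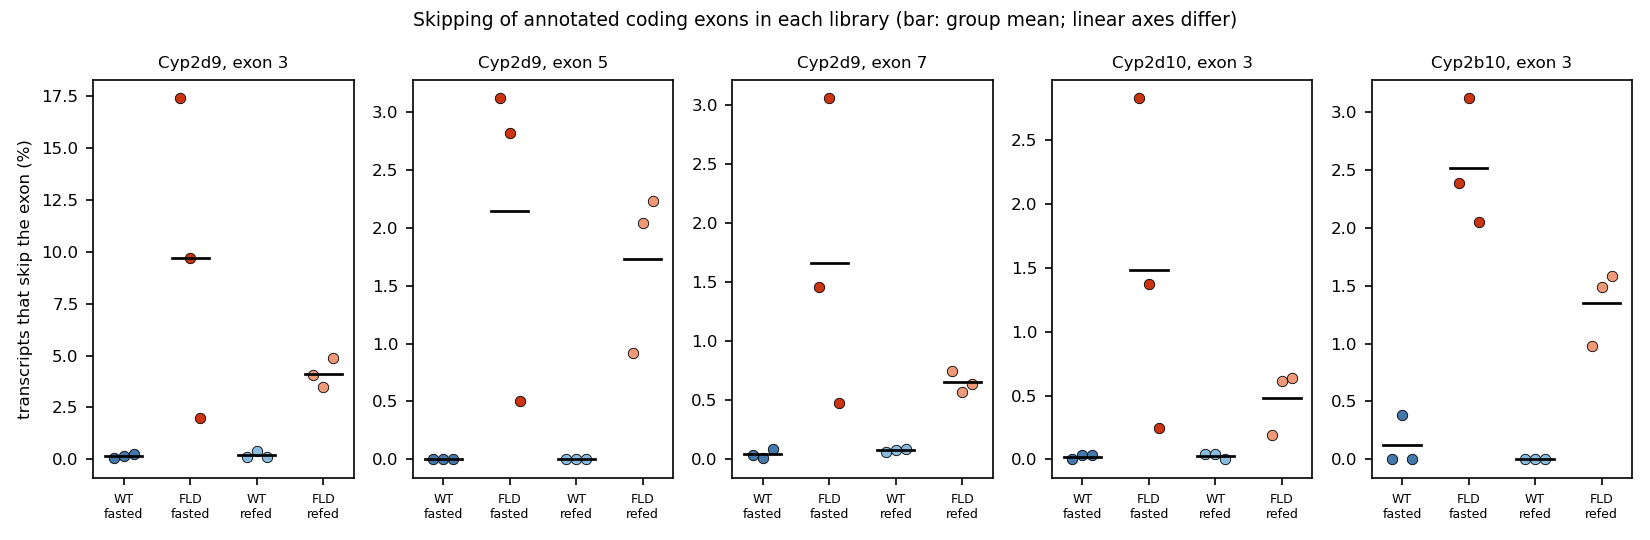
Estimated percentage of transcripts that skip an annotated coding exon in each library, for exons 3, 5, and 7 of Cyp2d9 and exon 3 of Cyp2d10 and Cyp2b10, with a bar for the mean of 3 libraries (linear axes with different scales). The estimates of the Lpin1-/- (FLD) libraries lie above those of the Lpin1+/+ (WT) libraries of the same feeding state in all 5 panels, but the refed difference was not called for exon 7 of Cyp2d9 and exon 3 of Cyp2d10 and Cyp2b10. Exon 8 of Cyp2d9 and exon 4 of Cyp2e1, which overlapped between refed genotypes, are not drawn.

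Among the other called events were many with exons that GENCODE M21 does not list. In Cyp2e1, a stretch of 173 bases (chr7:140765038-140765210) was included in 0.201%, 0.114%, and 0.0743% of transcripts in fasted Lpin1+/+ and in 3.13%, 2.10%, and 0.623% in fasted Lpin1-/- liver (adjusted p = 0.0122). In Cyp3a59, inclusion of a stretch of 85 bases (chr5:146085929-146086013) was estimated at 56.6%, 59.9%, and 55.6% against 17.0%, 20.1%, and 23.5% (adjusted p = 0.0226). The gene's RPKM was also lower in fasted Lpin1-/- liver. In Cyp3a25 a stretch of 240 bases (chr5:145993269-145993508) was estimated at 89.5%, 79.8%, and 75.0% against 48.4%, 38.4%, and 56.7% (adjusted p = 0.0422). The Cyp3a59 and Cyp3a25 shares are of the reads counted for the event, not of all transcripts of the gene. Skipping counts of the Cyp3a25 event were 72, 98, and 116 against 115, 288, and 161. Another Cyp3a25 event had 5889, 5927, and 7178 skipping counts in refed Lpin1+/+ liver. The lists of counts carry no replicate numbers, and their positions were not matched to RPKM libraries. Inclusion counts of Cyp2e1 exon 4 were 39595, 101470, and 205299 by position in fasted Lpin1-/- liver. The gene's RPKM by replicate was 1310, 2696, and 5144. In refed Lpin1+/+ liver these were 151360, 75530, and 299264 and 4356, 1871, and 7113. If positions follow replicate numbers, the 17.4% skipping of Cyp2d9 exon 3 belongs to a library that stood apart.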

How the data were processed

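RNA was sequenced from 12 livers as 69-base paired reads (stranded libraries, with an aim of 150 M reads per sample). The authors aligned reads to GRCm38 (Ensembl release 84) with HISAT2 2.0.5, counted genes with HTSeq 0.6.0, and deposited RPKM. They deposited rMATS lists of inclusion and skipping counts per exon event. Columns of their own p-values and differences in those lists were not used, nor were the shortened lists of genotype comparisons and a table of functional terms. The lists do not name the groups of their 2 sets of counts; these were taken from the order in which each list's name gives the groups, and checked against a shortened list of fasted against refed Lpin1+/+ mice, where the first set had the same counts in 1523 of 1523 shared events fasted and 1719 of 1719 refed. No column of sample values was left unmapped (0). The members and gene lists were chosen with earlier results of these data known.

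Because RPKM is not a count, the test on counts that the study used was replaced by limma 3.58.1 (R 4.3.3) with a trend on log2(RPKM + 1) in 1 fit of 4 groups, for the 11507 genes averaging 0.5 RPKM or more, with Benjamini-Hochberg adjustment over all genes and a threshold of 0.05. Fold changes on this scale understate the change of low genes. The smallest exact permutation p with 3 against 3 libraries is 0.1, so single values were not tested that way. For exon events in which each library had 10 counts or more, limma was applied to the log2 ratio of length-normalized inclusion and skipping counts (0.5 added), adjusted over all events. The scripts were tested on simulated data.

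The 10 most abundant members and, in each comparison, the 6 called members of largest change are given by library, and genes outside the family by list, at most 4 per list and comparison, with Por, Nr1i2, Nr1i3, and Hnf4a always. Replicates are separate mice. Replicate numbers of the labels carry no stated pairing. Deviations of same-numbered libraries correlated at 0.162 to 0.297 between the refed genotypes, where the blocked fit is given beside the result, at 0.390 to 0.743 between fasted Lpin1+/+ and refed Lpin1-/- mice, which were not compared with each other, and at -0.474 to 0.445 between the others. Alternatives were another pseudocount (0.1), no filter or a mean of at least 5 RPKM, rescaling, the replicate block, fits of 6 libraries, and the omission of single libraries. For exon events they were a minimum of 20 counts and 1 added to each count. Leaving out 2 libraries was added after seeing the data. Paralogs can share reads, and the treatment of reads that match several genes is not given in the sources used here. Positions and transcripts are from GENCODE M21, and upstream windows from RefSeq. The result of 1 list of genes, those female-biased in mouse liver, is not reported here as a whole.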

Additional observations from a re-analysis of the deposited data

How the results depend on the processing

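Of 26 gene results past the threshold, 9 passed in every alternative, and over 486 recomputed values 118 lost the call and 0 changed sign. Members called between fasted genotypes numbered 11 in the report, 7 at a mean of at least 5 RPKM, where Cyp2c44, Cyp2c55, Cyp2g1, and Cyp2u1 were no longer tested, and 7 to 15 with 1 library left out (7 without Lpin1+/+ fasted replicate 3). Between refed genotypes they numbered 7, then 4 without a filter on low values, 4 with the replicate block, 11 without the pair of libraries that stood apart, and 2 to 9 with 1 library left out (2 without Lpin1+/+ refed replicate 1 or Lpin1-/- refed replicate 1 or 3, 3 without Lpin1-/- refed replicate 2, and 4 without Lpin1+/+ fasted replicate 3). For feeding in Lpin1+/+ mice the count was 4, then 1 after rescaling, 1 with the replicate block (adjusted p = 0.0977 for Cyp3a11, 0.0562 for Cyp3a25, and 0.0583 for Cyp3a16), 0 in the fit of 6 libraries, 2 without the pair, and 1 to 5 with 1 library left out (1 without Lpin1+/+ fasted replicate 2 or 3, any Lpin1+/+ refed replicate, or Lpin1-/- refed replicate 3, and 2 without Lpin1-/- refed replicate 2). For feeding in Lpin1-/- mice it was 4, then 2 at a mean of at least 5 RPKM, 2 without the pair, and 1 to 5 with 1 library left out (1 without Lpin1-/- refed replicate 2 and 2 without replicate 1 or 3), and the block replaced Cyp2j9 (adjusted p = 0.0595) by Cyp2a4. For the interaction it was 0, then 1 at a mean of at least 5 RPKM, 1 after rescaling, 0 without the pair, and 0 with each library left out. Exon events in members numbered 78 fasted and 14 refed, then 121 and 27 with 1 added to each count, and 48 to 124 and 0 to 2 with 1 library left out (124 without list position 3 of fasted Lpin1-/- mice, and 48 to 55 without any other fasted library). Over all events, 12.9% and 2.05% were called with 1 added to each count. With 1 library left out, 5.48% to 13.7% and 0% to 0.0230% of all events were called. The cause of these shifts was not tested unless named. Same-numbered libraries did not deviate together over all pairs of groups, and the block changed no other call. Levels below about 1 RPKM are compressed by the added 1.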

Other observations

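The 16 genes of the family below the limit added little RNA. Cyp2j7 and Cyp2w1 were listed at 0 in every library, and the highest single value among the 16 was 0.915 RPKM (Cyp2d34 in refed Lpin1+/+ replicate 3). Cyp2ab1 was at 0, 0, and 0.00638 RPKM in fasted Lpin1+/+ and at 0.0587, 0.0432, and 0.0869 RPKM in fasted Lpin1-/- liver, and Cyp2j8 at 0.0852, 0.0583, and 0.0632 against 0.123, 0.165, and 0.123 RPKM. These 2 were called between fasted genotypes, and between refed and fasted Lpin1-/- mice, when no filter on low values was set.

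Within groups, the members' SD on the log2 scale had a median of 0.262 in fasted Lpin1+/+ liver (0.335 for all genes tested) and 0.369 in that of fasted Lpin1-/- mice (0.281 for all genes). After refeeding, it was 0.450 in Lpin1+/+ (0.231 for all genes) and 0.189 in Lpin1-/- liver (0.219 for all genes). Cyp2d12 spread most in fasted Lpin1-/- and refed Lpin1+/+ liver, the groups that hold the pair of libraries that stood apart, and Cyp2b10 in fasted Lpin1+/+ liver. The Lpin1+/+ fasted library with the most Cyp2b10 (99.7 RPKM) also had the most Lpin1 (22.0 RPKM), Por (301.8 RPKM), Alas1 (140.8 RPKM), and Slco1a4 (58.3 RPKM) of its group. It was highest in other genes too, such as Pck1 (2802 RPKM), Tat (1754 RPKM), and Cps1 (1340 RPKM). CAR (Nr1i3, 89.5 RPKM) and Alad (137.8 RPKM) were lowest there.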
